A study of Mus musculus with 11 samples.

Results

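Polycomb repressive complex 1 (PRC1) was examined through the mRNAs of 9 of its subunits, Rnf2, Ring1, Bmi1, Cbx2, Cbx7, Cbx8, Rybp, Phc1 and Pcgf6, which were selected by gene symbol from the 23284 genes listed for each library. All 9 were present in all 11 libraries. The libraries came from mouse embryonic stem cells (ESCs) grown on gelatin in serum with leukemia inhibitory factor, either wild type (WT) or Tet1,2,3 triple knock-out (TKO). Ribodepleted total RNA was sequenced from WT and TKO ESCs untreated (0 h) or treated for 4 h with α-amanitin at 10 µg/ml, which blocks RNA polymerase II, with 2 libraries in each of these 4 groups. Another group held 3 polyA libraries of WT ESCs. The TKO cells were a line made earlier. The study put Tet2 or a catalytic mutant back into TKO ESCs for assays by quantitative PCR. None of the libraries here is labelled as rescued, so that the genotype comparison is one between lines.

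PRC1 places a single ubiquitin on histone H2A and helps to hold developmental genes silent in ESCs. Every PRC1 has a RING subunit, Rnf2 (also called Ring1b) or Ring1, paired with 1 of 6 PCGF proteins, of which Bmi1 (also called Pcgf4) and Pcgf6 are members here. Canonical PRC1 adds a CBX protein, whose chromodomain binds the H3K27me3 mark laid down by PRC2, and a PHC protein, which polymerises and compacts chromatin. Variant PRC1 carries Rybp or its paralog Yaf2 in place of the CBX protein. The TET proteins oxidise 5-methylcytosine, in DNA mostly at CpG dinucleotides, and the study examined their action on RNA.

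The recovered read totals ranged from 25507874 to 29781366 in the ribodepleted libraries and from 72639837 to 82129168 in the polyA libraries. In TKO at 0 h, Tet1 was at 30.0 and 30.2 scaled TPM against 143 and 124 in WT, and Tet2 was at 7.73 and 7.17 against 55.5 and 48.1, while Tet3 was low in both, at 1.39 and 1.51 against 1.42 and 1.48. All 10 ESC markers were above 1 TPM in every group. Their summed level, in TPM as deposited like all marker values here, was 4797 to 4877 TPM in WT and 4640 to 4693 TPM in TKO at 0 h, carried by Dppa5a and Pou5f1. Single ESC markers differed between the genotypes at 0 h. Zfp42 was at 513 and 478 TPM in WT and at 126 and 123 in TKO, Esrrb at 186 and 178 against 117 and 115, Klf4 at 49.1 and 48.9 against 27.8 and 24.5, and Dppa5a at 1589 and 1616 against 2013 and 1970. Pou5f1 (1157 and 1176 against 975 and 1000) and Sox2 (296 and 285 against 248 and 240) were also lower in TKO. Nanog (40.2 and 36.9 against 44.1 and 48.4) and Tdgf1 (687 and 635 against 780 and 767) were higher. Sall4 and Fgf4 overlapped between the genotypes. The 5 neural markers present in the data, of 6 listed, ran both ways at 0 h. Olig2 was at 19.4 and 17.1 TPM in WT and at 0.0547 and 0.0310 in TKO. Tubb3 was at 182 and 179 against 142 and 143. Nes was higher in TKO, at 17.8 and 17.3 against 31.8 and 33.7. Sox1 was at 1.63 and 1.84 against 1.24 and 1.54, and Pax6 at 2.49 and 2.58 against 2.59 and 2.85. In the WT polyA libraries Olig2 was at 0, 0 and 0.0397 TPM. The sum of the 7 trophectoderm markers was 127 to 142 TPM in WT and 577 to 588 TPM in TKO at 0 h. It was carried by Krt8. At 0 h Hand1 was at 0.264 and 0.292 in WT and at 3.09 and 3.31 in TKO. Gata3 was at 0.156 and 0.280 against 0.913 and 1.13, and Eomes at 2.25 and 2.16 against 3.16 and 2.62. Cdx2 was at 0.766 and 0.710 against 1.24 and 1.06, and Tfap2c at 49.6 and 46.1 against 52.4 and 51.1. Elf5 overlapped between the genotypes. Cdx2, Elf5 and Gata3 stayed at no more than 1.38 TPM in any ribodepleted library. The sum of the 5 two-cell-like markers present in the data, of 6 listed, was 0.153 to 0.306 TPM in WT and 9.52 to 9.56 TPM in TKO at 0 h. The summed primed epiblast markers were at 306 to 312 TPM in WT and 280 to 285 in TKO at 0 h. Of these, Dnmt3b and Otx2 were lower and Fgf5, Zic2 and Pou3f1 higher in TKO. The fibroblast sum was 8.65 to 8.75 TPM in WT and 12.8 to 13.3 in TKO, and the primitive endoderm sum 5.61 to 5.79 against 4.56 to 5.29. These marker differences run with the genotype, and their part in the genotype results below was not tested. Of the libraries, TKO at 4 h replicate 1 stood apart from its partner, at -2.37 against -15.0 on the second principal component, which held 14.5% of the variance and followed the treatment.

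RefSeq promoter windows (GRCm38.p6, 250 bases before to 50 after the gene start) were found for 7 of the 9 members, all but Cbx2 and Rybp. The number of CpG dinucleotides in the window was 37 in Ring1, 33 in Cbx7, 30 in Rnf2, 24 in Cbx8, 23 in Bmi1, 22 in Pcgf6 and 9 in Phc1, against a median of 7 over all 32851 windows of this length. The share of all windows with at least as many CpG was 8.6% for Cbx7 and 20.0% for Cbx8. The 250 bases before the start are shown for these 2 CBX genes, which moved in opposite directions between the genotypes, with each CpG in capitals, 5′ to 3′ on the minus strand of chr15:79932647-79932896 (Cbx7) and chr11:119040914-119041163 (Cbx8).
Cbx7: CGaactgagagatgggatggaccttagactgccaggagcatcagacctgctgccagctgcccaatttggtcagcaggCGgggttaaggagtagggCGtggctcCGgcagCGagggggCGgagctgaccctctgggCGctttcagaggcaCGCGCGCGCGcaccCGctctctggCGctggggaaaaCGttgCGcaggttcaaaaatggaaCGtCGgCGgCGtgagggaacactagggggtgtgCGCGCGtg
Cbx8: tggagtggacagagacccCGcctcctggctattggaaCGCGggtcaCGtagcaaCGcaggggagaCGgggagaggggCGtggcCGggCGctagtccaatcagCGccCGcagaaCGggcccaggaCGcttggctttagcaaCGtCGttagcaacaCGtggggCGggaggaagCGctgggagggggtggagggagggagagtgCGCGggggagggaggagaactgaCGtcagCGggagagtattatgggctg
These stretches hold 23 CpG for Cbx7 and 22 for Cbx8. The E-box CACGTG, which reads the same on both strands, occurs in the 300-base windows of Bmi1 and Cbx8 and in 7.15% of all windows. The E2F motif TTCCCGC, searched on both strands, occurs in none of the 7 members and in 4.6% of all windows. DNA methylation was not measured in these libraries.

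In untreated WT ESCs the 9 mRNAs spanned from about 1 to over 100 scaled TPM, a length-corrected level that can be set side by side between genes. Rnf2, the main catalytic subunit, was the highest at 122 ± 1.25 (SD, n = 2 libraries). It was followed by Cbx7 at 104 ± 2.53, Phc1 at 95.1 ± 3.23, Pcgf6 at 86.7 ± 0.322 and Rybp at 52.2 ± 2.84. Cbx2 was at 17.2 ± 0.377, Ring1 at 7.32 ± 0.279, Bmi1 at 5.25 ± 0.918 and Cbx8 at 1.17 ± 0.182. In this group no neighbours in the order overlapped between their libraries. In untreated TKO ESCs Cbx7 stood below Phc1 and Pcgf6, and the libraries of the latter pair overlapped. Phc1 stood above Cbx7 in WT ESCs at 4 h in α-amanitin too (104 against 97.6). Cbx8 rested on few reads, at least 16 to 42 per ribodepleted library, whereas Rnf2 had at least 5125.

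**Figure D1:**
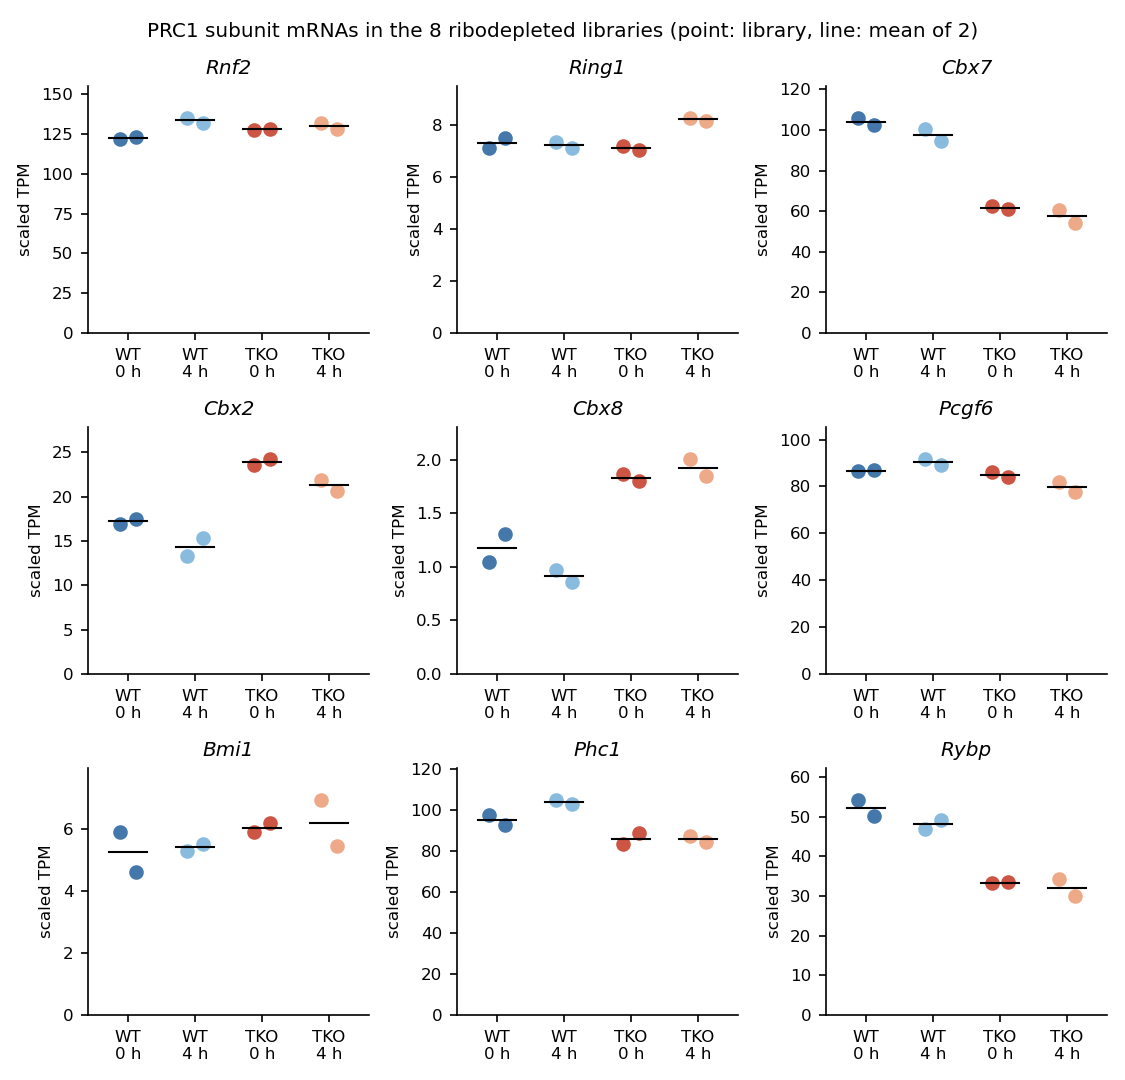
Scaled TPM (y axis, linear, from 0) of the 9 PRC1 subunit mRNAs in the 4 ribodepleted groups (x axis), each point a library and each line the mean of 2. Cbx7, Rybp, Phc1 and Pcgf6 lie lower and Cbx2 and Cbx8 higher in all 4 TKO libraries than in all 4 WT libraries. For Pcgf6 the gap is narrow (at most 86.3 in TKO and at least 86.5 in WT). The share of all genes separated in this way was not computed. Rnf2 stays between 122 and 135 throughout.

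The genotype comparison asked whether loss of the TET proteins went with another level of PRC1 mRNAs. In untreated cells the CBX subunits moved in opposite directions, with Cbx7 lower and Cbx2 and Cbx8 higher in TKO, and Rybp and, slightly, Phc1 lower. Rnf2, Ring1, Bmi1 and Pcgf6 did not pass the test. Thus 2 members rose and 3 fell at an adjusted p under 0.05 (limma with Benjamini-Hochberg adjustment over 12467 genes), where 56.1% of all genes tested passed, 27.8% higher and 28.2% lower. Of the 9 members, 2 (Cbx7 and Rybp) also exceeded 1.5-fold, as did 15.9% of all genes. The median log2 difference was -0.03 over the members and -0.02 over all genes tested. These are shares close to the background, so that nothing about PRC1 as a set follows from the counts. In these bulk samples, fewer cells with an mRNA and less of it per cell cannot be told apart.

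Cbx7, the CBX protein that prevails in undifferentiated ESCs, was at 106 and 102 scaled TPM in WT and at 62.7 and 60.9 in TKO. The TKO libraries lay well below the WT libraries, with a log2 difference of -0.74 (SE 0.060, limma adjusted p = 1.87e-05), or 0.598 times the WT level. Rybp, which stimulates the ubiquitin ligase activity of variant PRC1, was at 54.2 and 50.2 in WT and at 33.2 and 33.5 in TKO. Its log2 difference was -0.63 (SE 0.069, limma adjusted p = 9.32e-05). It fell short of 1.5-fold when WT replicate 1 at 0 h was left out, at -0.58 on the log2 scale.

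Cbx2, a CBX protein with a strong capacity to compact nucleosomes, was at 17.0 and 17.5 scaled TPM in WT and at 23.6 and 24.2 in TKO. The groups did not overlap and the log2 difference was 0.45 (SE 0.072, limma adjusted p = 0.000837). Cbx8, a further chromodomain subunit, was at 1.04 and 1.30 in WT and at 1.87 and 1.80 in TKO. Its log2 difference was 0.38 (SE 0.107, limma adjusted p = 0.014). At so low a level the 1 TPM added before taking logs makes this smaller than the ratio of the levels. Cbx8 no longer passed without WT replicate 1, TKO replicate 1 or TKO replicate 2 at 0 h, with log2 differences of 0.29, 0.36 and 0.40. Phc1, the polyhomeotic subunit, was at 97.4 and 92.8 in WT and at 83.2 and 88.7 in TKO, a log2 difference of -0.14 (limma adjusted p = 0.0328) that missed the threshold without WT replicate 1 (-0.12) or TKO replicate 1 (-0.10) at 0 h, and without either WT library at 4 h (both -0.14).

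Among the members that did not pass, the catalytic subunit Rnf2 was at 122 and 123 scaled TPM in WT and 127 and 128 in TKO, a log2 difference of 0.06 with a 95% interval from -0.03 to 0.16. Its paralog Ring1 was at 7.12 and 7.52 against 7.19 and 7.05, with overlapping groups and an interval from -0.19 to 0.12. Pcgf6, the defining subunit of the variant complex with E2f6, Mga and Max, was at 86.5 and 86.9 against 86.3 and 83.9, with an interval from -0.13 to 0.08. Bmi1, a PCGF protein of canonical PRC1, was at 5.90 and 4.60 against 5.88 and 6.18, and its interval from -0.11 to 0.46 was the widest of the 9.

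After 4 h in α-amanitin the same 5 members passed in the same directions, together with Pcgf6. Here 2 members were higher and 4 lower in TKO, against 59.4% of all genes that passed (29.1% higher and 30.3% lower). Cbx7 and Cbx8 exceeded 1.5-fold, as did 16.8% of all genes. Cbx7 was at 101 and 94.5 scaled TPM in WT and at 60.7 and 54.4 in TKO, a log2 difference of -0.75 (SE 0.060, limma adjusted p = 1.60e-05). Rybp was at 47.0 and 49.3 against 34.2 and 30.0, a log2 difference of -0.57 (limma adjusted p = 0.000139), just short of 1.5-fold. Both mRNAs again lay lower in each TKO library than in each WT library.

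Cbx2 at 4 h was at 13.3 and 15.4 scaled TPM in WT and at 21.9 and 20.7 in TKO, a log2 difference of 0.54 (SE 0.072, limma adjusted p = 0.000247). Cbx8 was at 0.969 and 0.859 against 2.00 and 1.85, a log2 difference of 0.61 (SE 0.107, limma adjusted p = 0.00119), with no overlap. The fold limit was close for several members. Cbx8 fell under it without WT replicate 2 (0.57) or TKO replicate 1 (0.57) at 4 h, Rybp passed it without WT replicate 1 (-0.62) or TKO replicate 1 (-0.66), and Cbx2 passed it without WT replicate 2 (0.63) or TKO replicate 2 (0.59). Phc1 was at 105 and 103 in WT and at 87.4 and 84.5 in TKO (log2 difference -0.27, limma adjusted p = 0.00146). Pcgf6 was at 91.6 and 89.0 against 81.8 and 77.5 (log2 difference -0.18, limma adjusted p = 0.00816), and did not pass without WT replicate 1 at 4 h (-0.17, adjusted p = 0.0547).

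Ring1 at 4 h was at 7.38 and 7.13 scaled TPM in WT and at 8.27 and 8.18 in TKO, which did not pass after adjustment (log2 difference 0.16, limma adjusted p = 0.0649). Rnf2 was at 135 and 132 against 132 and 128 (interval from -0.13 to 0.05), and Bmi1 at 5.28 and 5.51 against 6.91 and 5.43 (interval from -0.13 to 0.44). The small differences turn on the scaling. With the deposited TPM not rescaled, the median over all genes at 4 h moved from -0.01 to 0.14, Phc1 (-0.11) and Pcgf6 (-0.02) no longer passed, and Ring1 passed (0.30). At 0 h Phc1 (-0.05) then did not pass and Rnf2 (0.16) did. With quantile normalisation Cbx8 (0.22) and Phc1 (-0.09) did not pass at 0 h, Rnf2 (0.14) did, and Pcgf6 (-0.06) did not pass at 4 h. With the deposited TPM 4168 genes passed as higher and 2191 as lower at 0 h and 5035 and 2066 at 4 h, in place of 3471 and 3518 and of 3625 and 3779. The directions of Cbx7, Rybp, Cbx2 and Cbx8 at both times were kept under every scaling run.

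**Figure D2:**
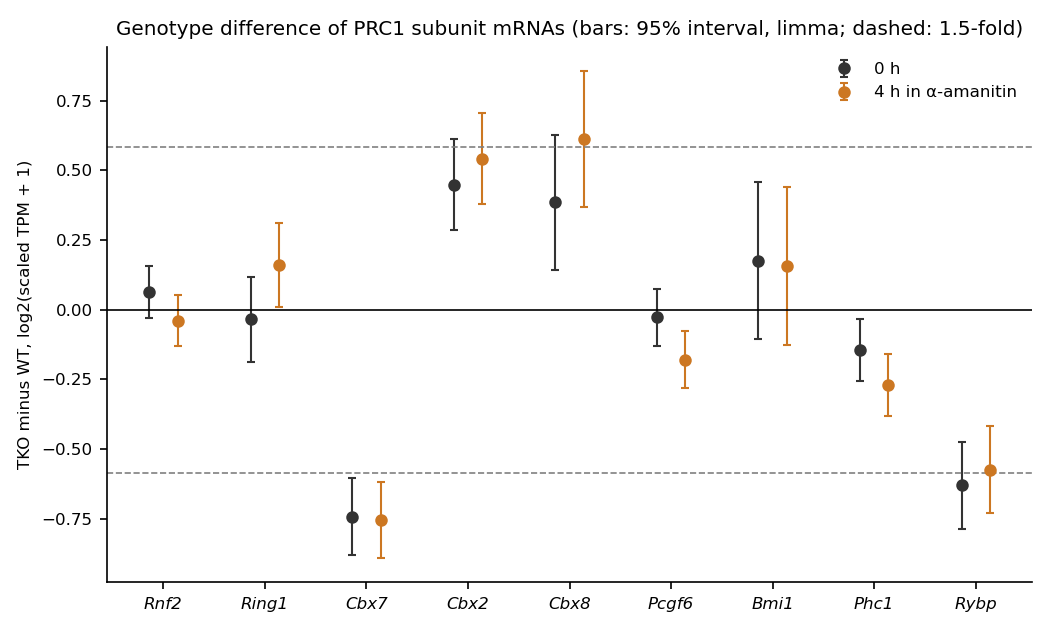
TKO minus WT difference of log2(scaled TPM + 1) (y axis) for each PRC1 subunit (x axis) at 0 h and at 4 h in α-amanitin, with 95% intervals from limma and dashed lines at 1.5-fold. Cbx7 (-0.74 and -0.75) and Rybp (-0.63 and -0.57) lie below 0 and Cbx2 (0.45 and 0.54) and Cbx8 (0.38 and 0.61) above 0 at both times.

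The treatment comparison asked which PRC1 mRNAs changed in relative level once transcription was blocked. TPM are shares of a library, so a fall common to all transcripts is not seen in them. In WT ESCs, 2 of the 9 members passed, Cbx2 lower and Rnf2 higher, and none exceeded 1.5-fold, against 37.7% and 2.1% of all genes tested. Cbx2 went from 17.0 and 17.5 scaled TPM at 0 h to 13.3 and 15.4 at 4 h, a log2 difference of -0.25 (SE 0.072, limma adjusted p = 0.0262). It did not pass without WT replicate 1 (-0.27) or replicate 2 (-0.23) at 0 h, without WT replicate 1 at 4 h (-0.15), with quantile normalisation (-0.19) or with no filter on low values (limma adjusted p = 0.0575). Rnf2 went from 122 and 123 to 135 and 132, a log2 difference of 0.12 (limma adjusted p = 0.0424). Rnf2 no longer passed when any 1 of the 4 WT libraries (0.11 to 0.15) or either TKO library at 0 h (both 0.12) was left out. Its difference turned sign with the deposited TPM (-0.03) and with quantile normalisation (-0.01). The other 7 had log2 differences between -0.18 (Cbx8) and 0.13 (Phc1). With the deposited TPM the median over all genes moved from 0.03 to -0.11, 397 genes passed as higher and 3145 as lower in place of 2730 and 1965, and Cbx7 passed as lower (-0.25). Cbx7 also passed as lower with quantile normalisation (-0.21, limma adjusted p = 0.0453), where the median over all genes was 0.04.

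In TKO ESCs 0 of the 9 members passed by limma, where 0.265% of all genes passed and 0.16% exceeded 1.5-fold as well. One of the 9, Ring1, had an unadjusted p under 0.05 (7.19 and 7.05 scaled TPM at 0 h, 8.27 and 8.18 at 4 h, log2 difference 0.18, limma adjusted p = 0.153). Limma voom on the recovered reads also called 0 of the 9. Without TKO replicate 1 at 4 h, 1575 genes passed as higher and 1225 as lower in place of 0 and 33, and still 0 of the 9 members passed. Cbx7 then had a log2 difference of -0.18 (limma adjusted p = 0.0501), in place of -0.10. No gene passed in the test of whether the treatment difference differed between the genotypes (0% of 12467 genes, and 0% also over 1.5-fold), and 938 genes had an unadjusted p under 0.05. Of the 9 members 1 did, Pcgf6, at an interaction of -0.15 (limma adjusted p = 0.662).

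The balance of paralogs was described by the share of each in the summed TPM of its family within a library, which does not depend on the scaling between libraries. Over the 4 WT and 4 TKO ribodepleted libraries, the share of Cbx7 in the summed Cbx2, Cbx6, Cbx7 and Cbx8 averaged 76.4% in WT (74.9 to 79.4) and 60.2% in TKO (59.0 to 61.0), lower by 16.3 percentage points. The share of Cbx2 was 11.95% in WT (10.5 to 12.8) and 22.8% in TKO (22.0 to 23.5). Cbx6 made up 10.8% and 15.2%, and Cbx8 0.789% and 1.90%. None of these 4 shares overlapped between the genotypes, but shares of one sum move together. The level of Cbx6 itself did not pass between the genotypes (log2 difference 0.05 at 0 h and 0.09 at 4 h). An exact two-sided permutation of the genotypes within each time gave p = 0.0556 for each of the 4 shares. This is the smallest that its 36 arrangements can give, so that this test cannot reach 0.05.

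Rybp made up 91.5% of the sum of Rybp and Yaf2 in WT (89.8 to 92.8) and 80.5% in TKO (79.1 to 81.5). Within the PCGF family the share of Pcgf6 was 54.7% in WT (52.6 to 57.3) and 46.6% in TKO (45.5 to 47.6), and that of Pcgf5 9.31% (8.55 to 10.2) and 15.5% (14.4 to 17.1). The level of Pcgf6 itself did not pass at 0 h (log2 difference -0.03) and was lower at 4 h (-0.18). Phc1 held 87.8% of its family in WT (86.6 to 88.7) and 84.7% in TKO (83.9 to 85.4). These shares did not overlap either (exact permutation p = 0.0556 each). The share of Rnf2 in the RING pair was 94.6% and 94.4%, and that of Bmi1 in the PCGF family 3.29% and 3.45%, with overlapping libraries (exact permutation p = 0.389 and 0.500). The summed scaled TPM at 0 h was 139.9 and 137 in WT against 105 and 103 in TKO for these 4 CBX genes, and 58.8 and 55.0 against 40.8 and 41.7 for Rybp with Yaf2.

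**Figure D3:**
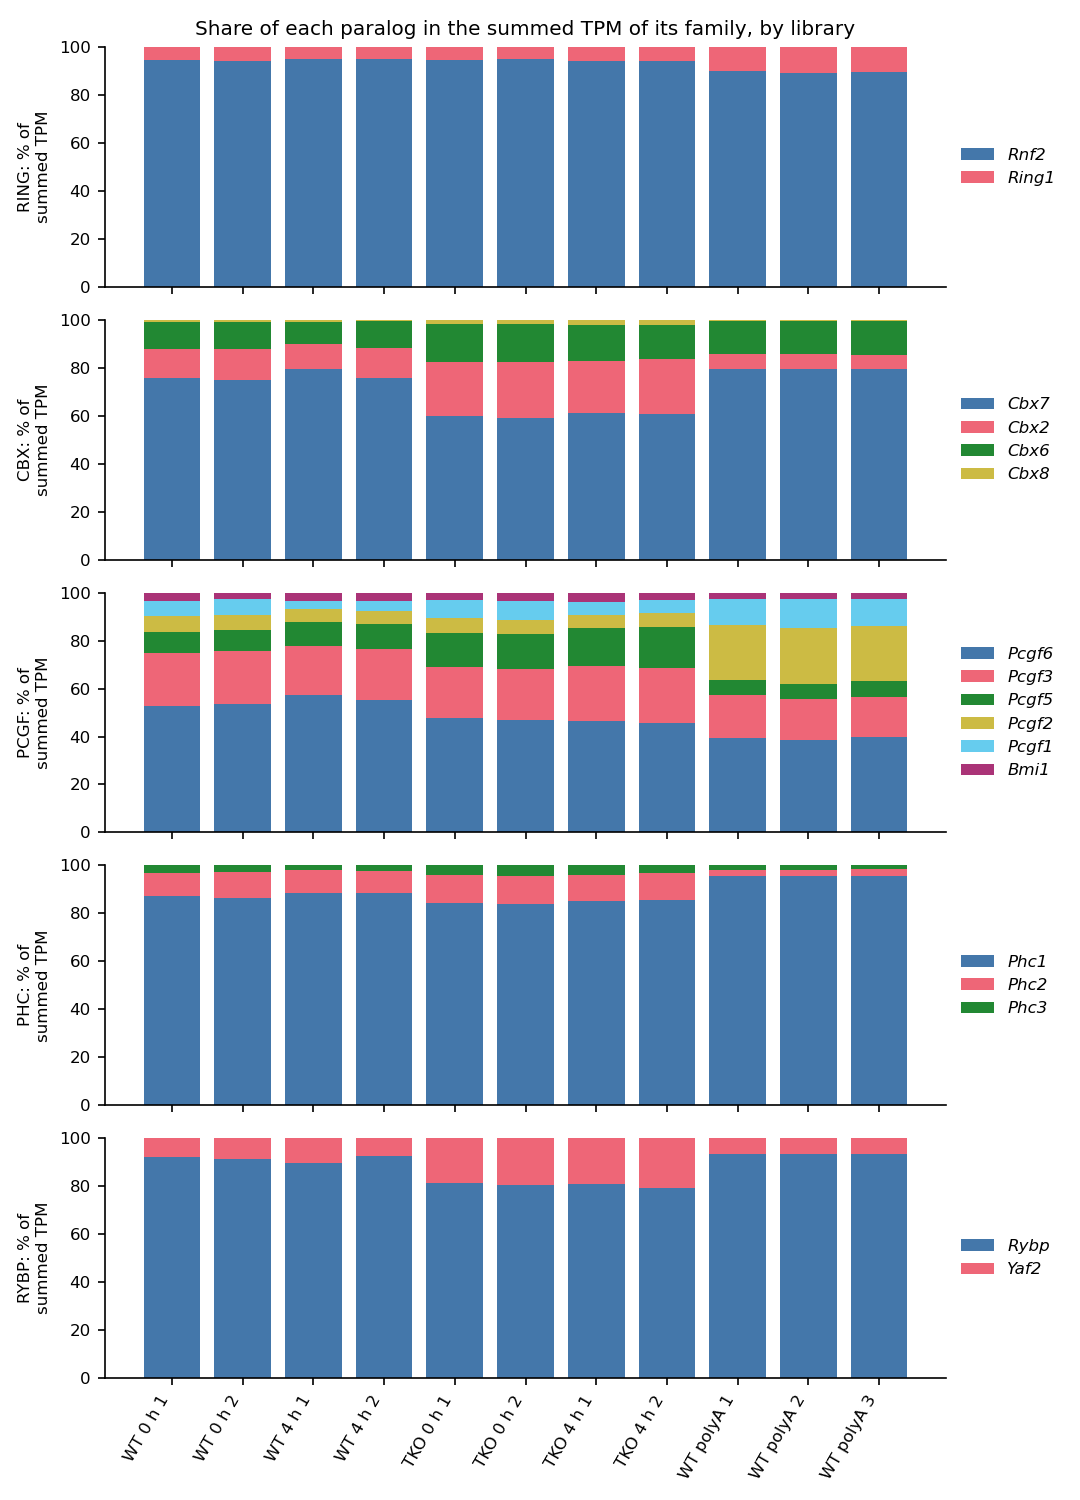
Share (%) of each paralog in the summed TPM of its PRC1 family (y axis, one panel per family) in each of the 11 libraries (x axis). Cbx7 and Rybp take smaller shares in the 4 TKO libraries (59.0 to 61.0% and 79.1 to 81.5%) than in the 4 WT ribodepleted libraries (74.9 to 79.4% and 89.8 to 92.8%), while the Rnf2 share overlaps between these genotypes.

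The other PRC1 genes were taken from a list of 31 further subunits and partners, of which 29 passed the filter on low values in the ribodepleted libraries. At 0 h, 9 of the 29 were higher and 7 lower in TKO, where 56.1% of all genes passed, with a median log2 difference of 0.07, and 2 exceeded 1.5-fold, as did 15.9% of all genes. Pcgf5, which forms a variant PRC1 that deposits ubiquitinated H2A broadly, was at 14.1 and 14.3 scaled TPM in WT and at 26.1 and 26.0 in TKO (log2 difference 0.83, SE 0.054, limma adjusted p = 6.03e-06). Yaf2 was at 4.66 and 4.85 against 7.54 and 8.17 (log2 difference 0.62, SE 0.119, limma adjusted p = 0.00217). In the same libraries Pcgf6, of the family of Pcgf5, did not pass, and Rybp, the paralog of Yaf2, was lower. At 4 h, 9 were higher and 8 lower with a median of 0.07 (59.4% of all genes passed and 16.8% exceeded 1.5-fold), and Pcgf5 (0.81), Yaf2 (0.70) and Cbx3 (-0.62) exceeded 1.5-fold. Cbx3, the heterochromatin protein HP1γ found in the Pcgf6 complex, was at 125 and 116 in WT and at 80.9 and 74.9 in TKO at 4 h.

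Cbx2 and Cbx8, which were both higher in TKO, lie close together on chromosome 11 in NCBIM37. Cbx2 (118884276 to 118892584, plus strand) is followed after 5.0 kb by Cbx8 (118897619 to 118902283, minus strand). At 0 h 27.8% of all genes tested passed as higher in TKO, and whether the shared position had a part was not tested. Cbx6 shares exonic sequence with Npcd on its own strand, so its values are uncertain. None of the 9 members overlaps another annotated gene. Cbx7 lies on chromosome 15 (79746237 to 79801549, minus strand) and Rybp on chromosome 6 (100178560 to 100237435, minus strand).

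In WT ESCs after α-amanitin, 11 of the 29 listed genes were higher and 3 lower (median 0.01 against 0.03 over all genes). Of all 12467 genes tested 37.7% passed, 2730 genes as higher and 1965 as lower. While 2.1% of all genes exceeded 1.5-fold as well, 1 of the listed genes did. This was Pcgf1, which with Kdm2b directs variant PRC1 to unmethylated CpG islands, at 9.91 and 10.4 scaled TPM at 0 h and 5.58 and 6.76 at 4 h (log2 difference -0.64, SE 0.098, limma adjusted p = 0.00574). In TKO 0 of the 29 passed by limma, with 8 at an unadjusted p under 0.05, and Pcgf1 went from 13.0 and 14.7 to 9.84 and 8.91 (log2 difference -0.51, limma adjusted p = 0.0792). The interaction gave 0 of 29 as well, with 2 at an unadjusted p under 0.05. Of 9 genes that remove or limit H2A ubiquitination, 1 was higher (Usp21) and 2 lower (Bap1 and Asxl2) in TKO at 0 h, 2 were higher and 1 lower at 4 h, and 1 was higher and 4 lower in WT after α-amanitin, against 56.1%, 59.4% and 37.7% of all genes that passed in these comparisons. None of these exceeded 1.5-fold.

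The genes with the most similar profiles were sought for the 3 members with the widest range of group means, by the Euclidean distance between centred log2(scaled TPM + 1) values over the 8 ribodepleted libraries. They were Kndc1 (0.086), Fggy (0.10) and Cep76 (0.11) for Cbx7, Col27a1 (0.12), Acvr1 (0.13) and Sh3bp5l (0.13) for Cbx2, and Ppp4r2 (0.10), Srbd1 (0.12) and Celsr1 (0.13) for Rybp. Ppp4r2 lies on the same chromosome as Rybp, 546.2 kb away, with Gxylt2 and Shq1 between them. The log2 difference of Ppp4r2 between TKO and WT at 0 h was -0.58, beside -0.63 for Rybp. This closeness follows from its selection by profile over the same libraries. A part of the position was not tested.

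The WT polyA libraries were set against the WT ribodepleted libraries at 0 h in a fit of their own. RNA selection went together with a separate sequencing experiment here, and these and any difference between the cultures cannot be told apart. The summed two-cell-like markers were at 12.5 to 14.8 TPM in the polyA libraries and at 0.153 to 0.306 in the ribodepleted ones. Single markers differed as well. Zfp42 was at 169, 165 and 175 TPM in polyA RNA against 513 and 478. Olig2 was at 0, 0 and 0.0397 against 19.4 and 17.1. Sox1 was at 13.7, 13.9 and 13.6 against 1.63 and 1.84, and Dppa5a at 8139, 8511 and 8229 against 1589 and 1616. The part of these markers in this comparison was not tested. In this comparison 3 members were higher and 3 lower in polyA RNA, against 81% of all 12481 genes tested (40.1% higher and 40.8% lower), and 3 exceeded 1.5-fold, against 35.1%. Phc1 was the most different, at 286, 290.2 and 267 scaled TPM in polyA RNA and 103 and 98.1 in ribodepleted RNA (log2 difference 1.47, SE 0.046, limma adjusted p = 2.18e-08). Cbx7 was at 174, 179 and 173 against 112 and 108 (log2 difference 0.67, limma adjusted p = 4.79e-07). Ring1 was at 12.5, 13.2 and 13.2 against 7.52 and 7.94 (log2 difference 0.68, limma adjusted p = 4.78e-06). In polyA RNA Phc1 and Cbx7 thus stood above Rnf2, which headed the order in each ribodepleted group.

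Cbx2 (log2 difference -0.40), Pcgf6 (-0.23) and Rnf2 (-0.21) were lower in polyA RNA, while Bmi1 (interval from -0.30 to 0.15), Cbx8 (-0.48 to 0.06) and Rybp (-0.04 to 0.16) did not pass. Rybp passed as higher with the deposited TPM (0.16) and with quantile normalisation (0.13), Cbx8 as lower with quantile normalisation (-0.27), and Bmi1 as lower without WT replicate 2 at 0 h (-0.24). Of the 30 other PRC1 genes tested, 14 were higher and 10 lower, and 9 and 2 of these exceeded 1.5-fold. Of all genes tested 81% passed and 35.1% also exceeded 1.5-fold. The largest differences were those of Pcgf2 (1.93), Fbrs (1.66), Fbrsl1 (1.26), Bcorl1 (1.05), Hdac1 (1.05) and Pcgf1 (1.04). Pcgf2 (Mel18), the paralog of Bmi1 in canonical PRC1, was at 44.5, 46.5 and 45.1 scaled TPM in polyA RNA and at 11.9 and 10.5 in ribodepleted RNA. It made up 22.8% of the PCGF family in polyA RNA and 6.50% in ribodepleted WT RNA at 0 h. Among the 9 deubiquitination genes 3 were higher and 4 lower, with Usp21 (1.04) and Foxk1 (0.70) over 1.5-fold, beside the same shares of all genes.

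**Figure D4:**
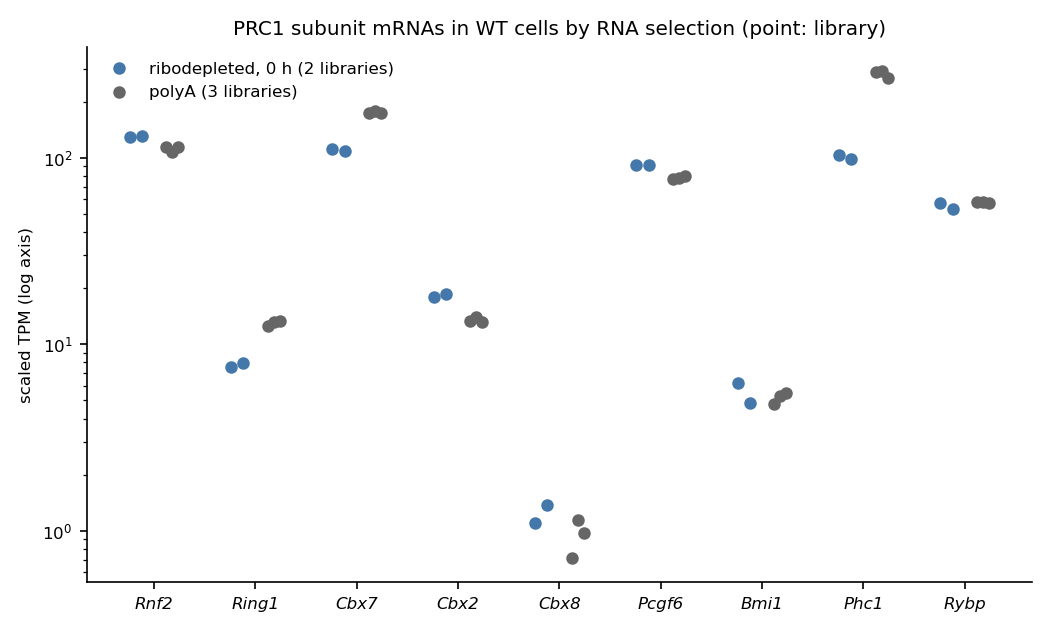
Scaled TPM (y axis, log scale) of the PRC1 subunit mRNAs (x axis) in WT ESCs, with 1 point for each of the 2 ribodepleted libraries at 0 h and the 3 polyA libraries. Phc1, Cbx7 and Ring1 lie higher in polyA RNA (Phc1 267 to 290.2 against 98.1 to 103), and Cbx2, Pcgf6 and Rnf2 lower.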

How the data were processed

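RNA-seq of 11 mouse ESC libraries was analysed. The deposited values are TPM per gene, made by the authors from gene counts (HTSeq) of reads cleaned with AfterQC, Bowtie2 and Trimmomatic and aligned by STAR to mm9 with RefSeq genes. Tool versions and the strandedness used in counting are not given in the sources used here. Groups and replicate numbers came from the sample titles. The ribodepleted libraries are biological duplicates per the study. What separates them (culture or day) is not given in the sources used here, nor is the kind of replicate of the polyA libraries, so p-values measure the spread between these libraries.

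Size factors (median of ratios) brought the libraries to one scale (scaled TPM). Limma 3.58.1 (R 4.3.3, lmFit, eBayes with a trend) was then run on log2(scaled TPM + 1). There was 1 fit of the 8 ribodepleted libraries and 1 of the 5 WT libraries that were polyA or ribodepleted at 0 h. The labels of the polyA libraries name no treatment. The test covered genes whose mean scaled TPM exceeded 1 (12467 and 12481), all 9 members included. P-values are two-sided and Benjamini-Hochberg adjusted over all genes tested. A gene passed at an adjusted p under 0.05 and was called when it also exceeded 1.5-fold on this scale. The study set the same limits on a fit of raw counts. Intervals cover 95%. With a library left out, its lone partner is assumed to vary like the other groups.

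TPM lay on steps of whole reads in 100% of 19869 genes above 0 (relative tolerance 1e-06), up to a divisor common to a gene's libraries, so recovered reads are minimum numbers. Replicates differed beyond sampling noise (chi-square over degrees of freedom at least 1.53), and none was counted as a repeat. Coordinates are from GENCODE genes on NCBIM37 (mm9) and promoter windows from RefSeq on GRCm38.p6. Scripts were tested on simulated data.

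Text names all 9 members, other PRC1 genes over 1.5-fold (at most the 6 largest per comparison) and family paralogs, called deubiquitination genes, the Tet genes and the 3 nearest profiles. Usp21, Bap1, Asxl2, Pcgf1 in TKO and single marker genes were named after their values were seen. Members and lists were chosen with earlier results of these data known. One listed gene is not reported here and was left out of lists and sums.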

Additional observations from a re-analysis of the deposited data

Results flagged for a closer look

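The genotype difference of Rnf2 ran in opposite directions at the 2 times. At 0 h both TKO libraries (127 and 128 scaled TPM) lay above both WT libraries (122 and 123), and at 4 h both TKO libraries (132 and 128) lay below both WT libraries (135 and 132). The interaction was -0.10 on the log2 scale, and the limma test of this difference did not pass (adjusted p = 0.687). The opposite directions rest on the scaling, since with the deposited TPM the TKO minus WT difference at 4 h was 0.12 and with quantile normalisation 0.11.

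The treatment difference of Pcgf6 ran in opposite directions in the genotypes. Both WT libraries at 4 h (91.6 and 89.0 scaled TPM) lay above both at 0 h (86.5 and 86.9), and both TKO libraries at 4 h (81.8 and 77.5) lay below both at 0 h (86.3 and 83.9). The interaction was -0.15 on the log2 scale with a 95% interval from -0.30 to -0.01, and it did not pass after adjustment (limma adjusted p = 0.662). With the deposited TPM the difference in WT was -0.10 and with quantile normalisation -0.04, so that both genotypes then moved in one direction.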

How the results depend on the processing

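The precision is limited by 2 libraries per group and, for Cbx8, by few reads. Small differences turned sign with the deposited TPM and with quantile normalisation. Of the counts and paralog shares recomputed under the alternatives, 165 stayed, 10 moved and 2 turned sign, and of the values of single members 807 stayed, 27 lost and 10 gained the threshold and 40 turned sign.

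The count of members called between TKO and WT at 0 h, which was 2, became 1 (Cbx7) with the deposited TPM and with a pseudocount of 5 TPM, ranged from 1 to 2 with a library left out, and was 5 with no fold limit. At 4 h it went from 2 to 1 (Cbx7) with quantile normalisation, a pseudocount of 5 TPM and a filter at a mean of 5 TPM, under which Cbx8 was not tested, and to 6 with no fold limit. With no fold limit the count went from 0 to 2 for the treatment in WT and from 3 to 6 for polyA against ribodepleted RNA. Limma voom on the recovered reads called 3 members at each time (Cbx7, Cbx8 and Rybp). For the treatment in TKO it passed 234 genes as higher and 503 as lower, where the fit of log2 TPM passed 0 and 33. Fitted with no variance trend, Phc1 between the genotypes at 0 h (adjusted p = 0.0653) and Rnf2 for the treatment in WT (adjusted p = 0.0849) did not pass.

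With the deposited TPM the following log2 differences turned sign. For TKO against WT they were 0.068 for Pcgf6 and 0.050 for Ring1 at 0 h and 0.12 for Rnf2 at 4 h. For the treatment in WT they were -0.094 for Bmi1, -0.10 for Pcgf6, -0.032 for Phc1 and -0.035 for Rnf2, and in TKO -0.063 for Bmi1, -0.018 for Cbx8 and -0.074 for Rnf2. The interactions became 0.031 for Bmi1 and 0.050 for Cbx7, and Bmi1 in polyA against ribodepleted RNA became 0.011. With quantile normalisation the TKO against WT difference became 0.042 for Pcgf6 at 0 h and 0.11 for Rnf2 at 4 h, that of the treatment in WT -0.042 for Pcgf6, 0.091 for Ring1 and -0.00621 for Rnf2, that in TKO -0.044 for Rnf2, and the Cbx7 interaction 0.078. Of these differences only that of Rnf2 for the treatment in WT had passed the test.

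With 1 library left out in turn, differences that turned sign ranged, for the treatment in WT, from -0.11 to 0.19 for Bmi1 and from -0.046 to 0.022 for Ring1. For the treatment in TKO they ranged from -0.13 to 0.17 for Bmi1, from -0.044 to 0.047 for Phc1 and from -0.15 to 0.036 for Rybp. The interactions ranged from -0.17 to 0.13 for Bmi1, from -0.016 to 0.18 for Cbx2, from -0.084 to 0.067 for Cbx7 and from -0.032 to 0.15 for Rybp. For polyA against ribodepleted RNA the ranges were -0.24 to 0.067 for Bmi1 and -0.00605 to 0.10 for Rybp. The TKO minus WT share of Bmi1 in the PCGF family ranged from -0.026 to 0.35 percentage points.

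Replicate numbers in the titles are not said to mark shared cultures or days, and the departures from the group mean of libraries that share a number correlated at -0.044 to 0.119 over 6 pairs of groups. In fits with a replicate block the counts of called members were 2 at 0 h, 2 at 4 h, 0 for the treatment in WT, 0 in TKO, 0 for the interaction and 3 for polyA against ribodepleted RNA, and no member's call changed.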
